A study of Rattus norvegicus with 8 samples.

Results

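Estradiol given after ovariectomy, whether started at surgery or 9 weeks later, was compared with ovariectomy alone in the hearts of aged female rats. The comparison used 6 of the 8 arrays of the series: 2 of ovariectomy, 2 of ovariectomy with early estrogen and 2 of ovariectomy with late estrogen, chosen by their titles. All rats were Norway Brown females of 18 to 22 months. Early rats received a subcutaneous slow-release pellet of 0.5 mg estradiol, made to last 90 days, in the operation that removed the ovaries; late rats received the same pellet 9 weeks afterwards, and the ovariectomy rats had no pellet. The remaining 2 arrays were of sham-operated rats, which kept their ovaries. Each array held RNA pooled from 3 hearts, so the 4 estradiol arrays stand for 12 hearts and the 2 ovariectomy arrays for 6. Nothing in the labels says how the hearts of a group's 2 pools were divided beyond this, so a p-value measures the spread between pools, which may be technical.

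Estradiol acts through nuclear receptors, which bind DNA directly or through partner proteins such as AP-1 and Sp1, and through a membrane receptor, Gper1. In the heart these receptors have been described in cardiomyocytes, fibroblasts and endothelial cells, and ovariectomy is the usual rodent model for the loss of ovarian hormones. Cardiac fibroblasts make the collagen of the heart, and resident macrophages carry most of its antigen-presenting MHC class II molecules. The level of a gene below is its log2 signal after quantile normalization over all 8 arrays, taken from the brightest of its probe sets. A difference is the level on an estradiol array minus that on the ovariectomy array of the same replicate number, and a gene is said to lie in the same direction when all 4 differences are above 0 or all 4 are below 0. The 2 estradiol arrays of a number share 1 ovariectomy array, so the 4 differences are not independent.

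Some arrays stood apart before any comparison. The 2% trimmed mean signal of the deposited values ran from 28.2 to 70.0 on replicate 1 arrays and from 104.2 to 137.5 on replicate 2 arrays. The dimmest was replicate 1 of late estradiol, and its Gapdh 3' to 5' ratio, which rises as RNA degrades, was 2.70 against 1.26 to 1.65 elsewhere. Its actin 3' to 5' ratio did not stand apart, at 3.01 against 3.06 on ovariectomy replicate 2 and 1.71 to 2.75 on the other arrays. Ovariectomy replicate 2 had the highest summed signal of 11 macrophage markers, 5835 against 1178 to 2712 on the other 7 arrays. The 6 measured atrial markers also varied, with a sum of 1352 and 3130 on the ovariectomy arrays and 2109 to 4201 on the estradiol arrays. Cardiomyocyte markers were bright throughout, the mean level of the 6 measured ones running from 11.58 (Ryr2) to 12.96 (Tnnt2). In whole-heart RNA, fewer cells of a type cannot be told apart from less RNA in each of them.

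No gene passed the test of estradiol at either start. In limma with replicate number as a block, 0 of 18625 probe sets had a Benjamini-Hochberg adjusted p under 0.05 for estradiol at either start, taken as the mean of the early and late groups, against ovariectomy (0%), and the lowest was 0.173. At an unadjusted p under 0.05 there were 959, of which 608 were higher and 351 lower with estradiol. Late against early estradiol likewise gave 0 probe sets (0%), with a lowest adjusted p of 0.257 and 1451 at an unadjusted p under 0.05. Taken alone, early estradiol against ovariectomy gave 0 (0%, with 687 at an unadjusted p under 0.05) and late estradiol gave 1 (0.00537%, with 1494), the collagen gene Col3a1. With no effect at all, an unadjusted threshold of 0.05 still passes some of 18625 probe sets, so nothing is read from these unadjusted counts. Apart from the Col3a1 call, the values below are a description of these 6 arrays.

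Of 10451 genes measured, 1226 lay higher on all 4 estradiol arrays (11.7%) and 1163 lay lower on all 4 (11.1%). The size of the difference depended on the level of the gene. Among the 3484 brightest genes, with levels of 7.08 and above, 402 were higher and 361 lower on all 4, but only 11 and 16 of these had a mean difference of at least 1.5-fold. Among the 3484 dimmest, with levels up to 5.53, the same counts were 407 and 414, with 251 and 277 of at least 1.5-fold. The median size of the difference among genes in the same direction was 0.74 in the dim genes, 0.40 in the middle and 0.26 in the bright ones, and the median standard error was 0.48, 0.26 and 0.18. On every one of the 4 arrays, 54 genes were at least 1.5-fold higher and 28 at least 1.5-fold lower. At the border of the rule, Cnpy4 was just inside it with a smallest difference of 0.00025, and Tpm1, a thin filament protein, was just outside, with 0 on late replicate 1 and 0.044 to 0.082 on the other arrays.

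The balance of directions depended on the scaling of the arrays. Over probe sets, 2327 were higher and 1862 lower on all 4 arrays after quantile normalization. With each array centred on its median the counts were 2554 and 1151, and with no scaling between arrays 1097 and 1793. Without scaling, the median difference over all probe sets was 0.12 and 0.22 on the early arrays and -0.48 and -0.12 on the late arrays. Without late replicate 1, 3492 probe sets were higher and 2780 lower on the 3 estradiol arrays that remained.

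**Figure D1:**
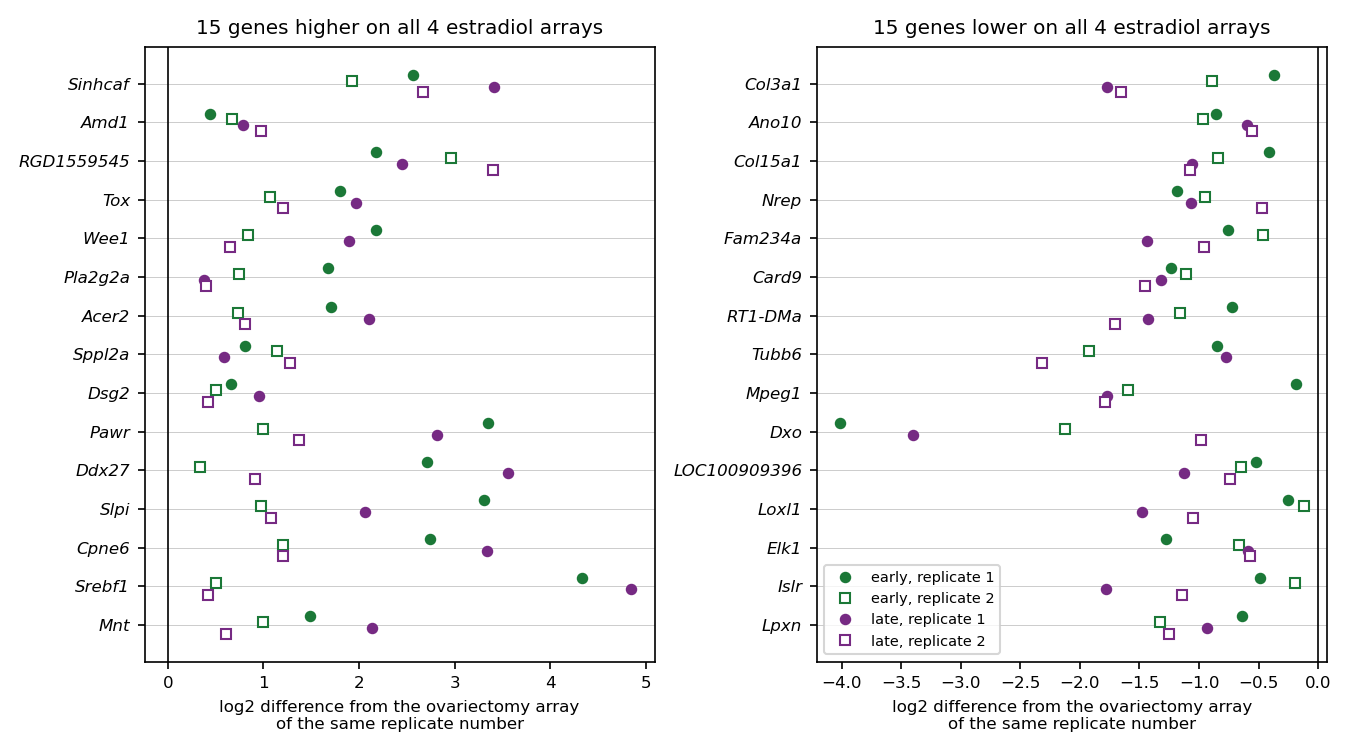
Differences of the 4 estradiol arrays from the ovariectomy array of the same replicate number (horizontal axis, log2) for 15 genes higher (left) and 15 genes lower (right) on all 4, ordered by unadjusted p. Circles are replicate 1 and squares replicate 2, green is early and purple late estradiol. Replicate 1 lies further from 0 for 12 of the 15 higher genes.

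The genes named first are the 15 higher and the 15 lower ones with the smallest unadjusted p among genes in the same direction with a mean difference of at least 1.5-fold. They were chosen by this contrast, so their sizes are a description. The 4 estradiol arrays lay above both ovariectomy arrays for 13 of the 15 higher genes and below both for 12 of the 15 lower ones. Over all genes, 552 (5.28%) had 4 estradiol arrays above both ovariectomy arrays and 510 (4.88%) had them below, and nothing is read from the named genes' counts because the p that chose them uses the same separation.

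Among the 15 named genes higher with estradiol, 3 stood at levels above 8 on every array. Amd1, the decarboxylase of S-adenosylmethionine that feeds polyamine synthesis, stood at 8.42 and 8.12 on the ovariectomy arrays, 8.86 and 8.80 on the early arrays and 9.20 and 9.10 on the late arrays. Its groups did not overlap, and the late arrays lay above the early ones. The mean difference was 0.72 ± 0.15 (limma's standard error, 4 arrays against 2), or 1.65-fold. Dsg2, the desmosomal cadherin that joins cardiomyocytes at the intercalated disc, stood at 8.38 on both ovariectomy arrays, 9.04 and 8.88 on the early arrays and 9.33 and 8.81 on the late arrays. All 4 estradiol arrays were above the ovariectomy level, by 0.64 ± 0.16 or 1.55-fold in the mean. Pla2g2a, a secreted phospholipase A2 known as an acute-phase protein, stood at 9.47 and 9.46 with ovariectomy, 11.14 and 10.21 with early and 9.85 and 9.86 with late estradiol. Early replicate 1 was the highest array, and the mean difference was 0.80 ± 0.19 or 1.74-fold. With no scaling between arrays, Pla2g2a on late replicate 1 was lower than on its ovariectomy array, by a difference of -0.23.

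The higher genes of largest size were dim with ovariectomy. Sinhcaf, a subunit of the SIN3 histone deacetylase complex, stood at 2.73 and 2.70 on the ovariectomy arrays, 5.29 and 4.63 on the early arrays and 6.13 and 5.36 on the late arrays. The sham arrays, at 6.02 and 5.07, lay with the estradiol arrays. The mean difference was 2.64 ± 0.40, with an adjusted p of 0.397 (limma, Benjamini-Hochberg). RGD1559545, a gene known here by its identifier, stood at 2.79 and 0.89 with ovariectomy, 4.97 and 3.85 with early and 5.24 and 4.29 with late estradiol. Sinhcaf, RGD1559545, Pawr and Cpne6 had a mean level with ovariectomy below the filter of 3.69, and Dxo had one with estradiol. These 5 passed the filter through the group in which they were higher, and the size of their difference depends on how low signals are treated. With 32 added to every signal before the log, the difference was 0.96 for Sinhcaf, 0.67 for RGD1559545 and -1.19 for Dxo.

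Also in the higher set, Wee1, the kinase that holds Cdk1 inactive and a clock-controlled gene in mouse liver, stood at 4.06 and 5.44 with ovariectomy, 6.23 and 6.27 with early and 5.95 and 6.09 with late estradiol. Its groups did not overlap (1.39 ± 0.32), but another probe set of Wee1 was of mixed direction (0.20 ± 0.42). Tox, an HMG-box factor best known from T cells, stood at 3.93 and 4.36 with ovariectomy and at 5.44 to 5.90 on the 4 estradiol arrays (1.51 ± 0.34). Mnt, a MAX partner that opposes MYC, stood at 4.23 and 4.80 with ovariectomy and at 5.41 to 6.36 with estradiol (1.31 ± 0.37). Srebf1, the SREBP-1 regulator of lipid synthesis, stood at 1.67 and 6.28 with ovariectomy and at 6.00 to 6.78 with estradiol. Its 2 ovariectomy arrays thus differed far more than its estradiol arrays, and the groups overlapped. The mean difference of 2.53 ± 0.69 was 0.69 without ovariectomy replicate 1 and 4.35 without replicate 2, and a second probe set of the gene lay the other way, at -1.02 ± 0.54.

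Acer2, an alkaline ceramidase of the Golgi that releases sphingosine, stood at 4.32 and 5.66 with ovariectomy, 6.03 and 6.39 with early and 6.42 and 6.46 with late estradiol (1.34 ± 0.32). A second Acer2 probe set was higher on all 4 arrays too, at 0.80 ± 0.28. Sppl2a, an intramembrane protease that cleaves the Cd74 stub in antigen-presenting cells of mice, stood at 6.62 and 6.24 with ovariectomy and at 7.20 to 7.52 with estradiol (0.95 ± 0.23). Its 3 other probe sets were of mixed direction, and the mean over all of them was 0.24. Slpi, a secreted inhibitor of neutrophil elastase, stood at 3.49 and 6.11 with ovariectomy, 6.79 and 7.08 with early and 5.55 and 7.18 with late estradiol, with overlapping groups (1.85 ± 0.49). The remaining higher genes were Pawr (2.13 ± 0.54), a pro-apoptotic protein, Ddx27 (1.88 ± 0.48), an RNA helicase of ribosome assembly, and Cpne6 (2.12 ± 0.57), a calcium-dependent phospholipid-binding copine. For Ddx27 the other probe set was higher on all 4 arrays, at 0.50 ± 0.39.

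The higher genes leaned on replicate 1. For 12 of the 15, the mean of the early and late differences was larger in replicate 1 than in replicate 2, with a median of 2.04 against 0.82 on the log2 scale. Among the lower genes, 7 were larger in replicate 1 and 8 in replicate 2, with medians of 0.98 and 0.96. Ovariectomy replicate 1, the array shared by both replicate 1 differences, had a trimmed mean signal of 40.5 and ovariectomy replicate 2 one of 116.3. The part of this brightness in the differences was not tested. Without ovariectomy replicate 1, the mean difference of Pawr was 1.31, that of Cpne6 1.28, that of Ddx27 0.77, that of Slpi 0.83, that of Acer2 0.77 and that of Wee1 0.85. Without ovariectomy replicate 2, the same genes gave 2.97, 2.97, 3.0, 2.86, 1.90 and 1.92.

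**Figure D2:**
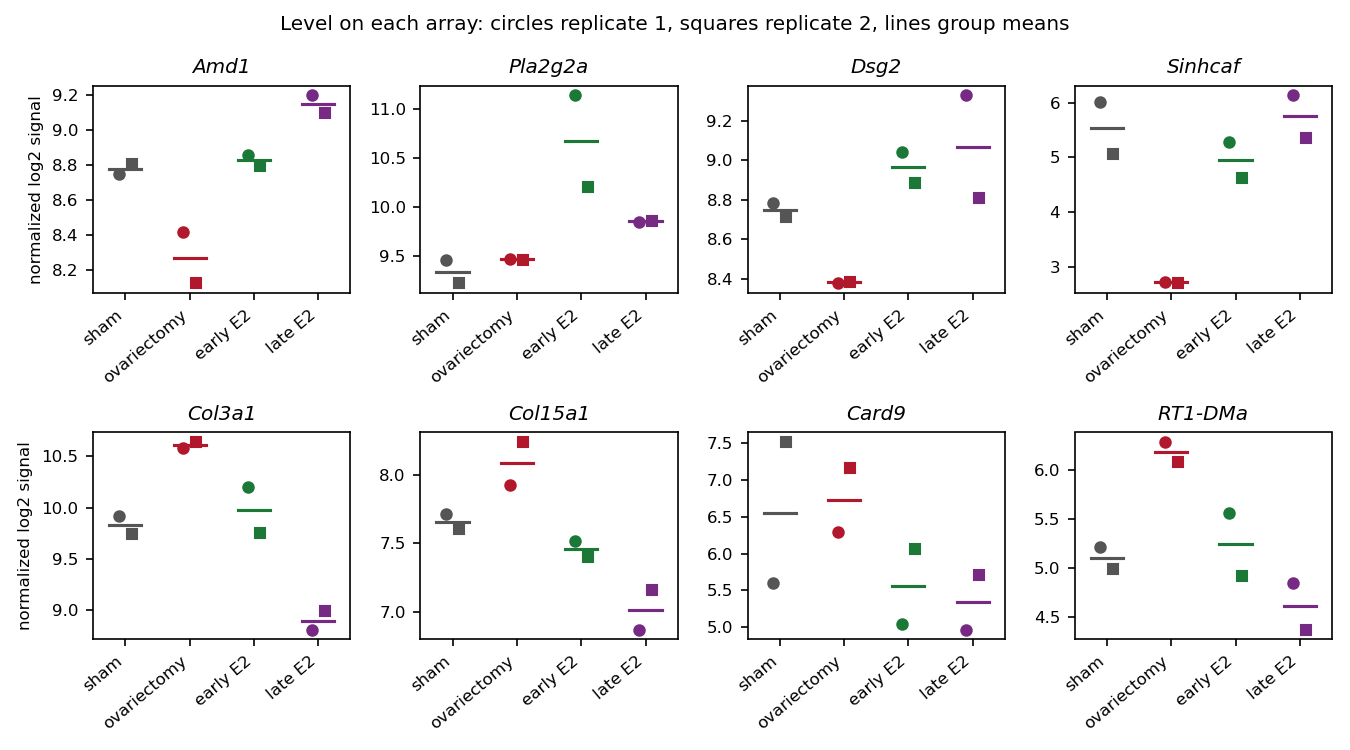
Normalized log2 signal (vertical axis, own scale per gene) on each of the 8 arrays for 4 genes higher and 4 lower with estradiol. Circles are replicate 1, squares replicate 2, and lines group means of 2 arrays. Sinhcaf on both ovariectomy arrays is at 2.73 and 2.70, and Col3a1 is highest there, at 10.58 and 10.64.

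Among the genes lower with estradiol, Col3a1 had the lowest p. This gene, the chain of fibrillar type III collagen made by fibroblasts, stood at 10.58 and 10.64 on the ovariectomy arrays, 10.21 and 9.75 on the early arrays and 8.81 and 8.99 on the late arrays. Every estradiol array lay below both ovariectomy arrays, and the late arrays lay below the early ones. The mean difference was -1.17 ± 0.15, or 2.25-fold lower, and its adjusted p of 0.173 was the lowest of all probe sets (limma, Benjamini-Hochberg). For late estradiol alone the difference from ovariectomy was -1.71 ± 0.17 with an adjusted p of 0.0182, the single call of that comparison, and for early estradiol alone it was -0.63 ± 0.17. The late call was lost without late replicate 1 (-1.52, adjusted p 0.647), without either ovariectomy array (0.0744 and 0.0761) or either sham array (0.0563 and 0.0620), with median centring (0.0626), with no intensity trend (0.726) and in the unpaired fit (0.0686). For both starts together, without late replicate 1, the array with the high Gapdh ratio, the difference was -1.07, and without ovariectomy replicate 2 it was -1.07 as well. Col15a1, a basement membrane collagen of vessels and muscle, stood at 7.93 and 8.24 with ovariectomy, 7.51 and 7.40 with early and 6.87 and 7.16 with late estradiol. Its groups did not overlap either, at -0.85 ± 0.19, and a second probe set of the gene was lower on all 4 arrays, at -1.22 ± 0.29.

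Loxl1, a lysyl oxidase relative that cross-links elastin, stood at 7.54 and 7.07 with ovariectomy, 7.29 and 6.95 with early and 6.06 and 6.02 with late estradiol. Its early arrays overlapped the ovariectomy arrays and its late arrays did not. Islr, a surface protein of mesenchymal stromal cells also called meflin, stood at 6.75 and 6.85 with ovariectomy, 6.26 and 6.66 with early and 4.97 and 5.71 with late estradiol. Late minus early was -1.08 ± 0.17 for Col3a1, -1.08 ± 0.24 for Loxl1 and -1.12 ± 0.30 for Islr, with limma adjusted p-values of 0.257, 0.543 and 0.543. With no scaling between arrays or with median centring, Loxl1 and Islr had an early array above its ovariectomy array. Of these 3 scalings, their same direction held only under quantile normalization.

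The lower set also held RT1-DMa, Card9, Mpeg1 and Lpxn. RT1-DMa, a chain of the rat DM molecule that loads peptides onto MHC class II, stood at 6.29 and 6.08 with ovariectomy, 5.56 and 4.92 with early and 4.85 and 4.38 with late estradiol (-1.25 ± 0.31). Card9, an adaptor of C-type lectin receptors in myeloid cells, stood at 6.29 and 7.16 with ovariectomy, 5.05 and 6.06 with early and 4.97 and 5.71 with late estradiol (-1.28 ± 0.30). For both genes every estradiol array lay below both ovariectomy arrays. Mpeg1, the pore-forming perforin-2 of macrophages, stood at 6.28 and 7.52 with ovariectomy, 6.09 and 5.93 with early and 4.51 and 5.73 with late estradiol (-1.34 ± 0.33). Its early replicate 1 array was only 0.19 below its ovariectomy array, and with median centring it was 0.02 above. Lpxn, a paxillin-like adaptor of blood cells, stood at 5.81 and 6.33 with ovariectomy and at 4.87 to 5.17 with estradiol (-1.04 ± 0.31).

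Macrophage markers did not share one direction. Of the 11 measured markers, 1 (Adgre1) was higher on all 4 estradiol arrays, none was lower on all 4 and 10 were mixed. Mean differences were below 0 for 9 markers and above 0 for 2, with a median of -0.36. By array, the markers had a median difference of 0.80 on early replicate 1 and -1.16 on early replicate 2. On the late arrays the markers had medians of -0.65 in replicate 1 and -1.44 in replicate 2. Their summed signal was 1428 and 5835 on the ovariectomy arrays, 2712 and 2128 on the early arrays and 1178 and 1792 on the late arrays, and 1320 and 1441 on the sham arrays. In replicate 2 the sum was lower with estradiol, and in replicate 1 it was higher with early and lower with late estradiol. None of the 11 markers stood at 0 or under the filter. The part of macrophage content in the values of Mpeg1, Card9 and RT1-DMa was not tested. Without ovariectomy replicate 2 the mean differences of these genes were -1.0, -1.43 and -1.12, and nothing about macrophage content is read from them.

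The rest of the lower set had no common role. Ano10, an anoctamin membrane protein, stood at 8.65 and 9.34 with ovariectomy, 7.80 and 8.38 with early and 8.06 and 8.79 with late estradiol. The 4 differences were alike, from -0.96 to -0.56, although the groups overlapped, replicate 2 being brighter than replicate 1 in each of them (-0.74 ± 0.15). Nrep, a small protein first described in regenerating neurons, stood at 7.24 and 7.66 with ovariectomy and at 6.05 to 7.19 with estradiol (-0.92 ± 0.21). Elk1, an ETS factor of the serum response, lay lower by -0.77 ± 0.22 and Fam234a by -0.90 ± 0.21. Tubb6, a beta tubulin, gave -1.47 ± 0.36, and its difference was -2.22 without ovariectomy replicate 1 and -0.74 without replicate 2. Dxo, an enzyme that removes faulty RNA caps, gave -2.63 ± 0.71, and LOC100909396, known here by its identifier, -0.76 ± 0.21. Apart from Col3a1 and Sinhcaf, the 30 genes had an adjusted p of 0.890.

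Promoters are shown for 3 of the named genes: the polyamine enzyme Amd1, the MHC class II loader RT1-DMa and the basement membrane collagen Col15a1. They come from RefSeq on assembly GRCr8, span the start site of the gene and are read 5' to 3' on the strand of the gene. Capitals mark the Sp1 box GGGCGG on either strand. Amd1 lies at chr20:45265933-45266232 on the minus strand, RT1-DMa at chr20:4712286-4712585 on the minus strand and Col15a1 at chr5:66297296-66297595 on the plus strand.
Amd1: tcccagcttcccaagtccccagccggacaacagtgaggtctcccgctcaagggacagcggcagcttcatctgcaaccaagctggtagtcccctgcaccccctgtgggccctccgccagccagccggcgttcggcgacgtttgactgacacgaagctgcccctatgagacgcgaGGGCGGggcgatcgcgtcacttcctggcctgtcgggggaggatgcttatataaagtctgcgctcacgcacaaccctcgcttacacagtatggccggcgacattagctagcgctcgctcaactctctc
RT1-DMa: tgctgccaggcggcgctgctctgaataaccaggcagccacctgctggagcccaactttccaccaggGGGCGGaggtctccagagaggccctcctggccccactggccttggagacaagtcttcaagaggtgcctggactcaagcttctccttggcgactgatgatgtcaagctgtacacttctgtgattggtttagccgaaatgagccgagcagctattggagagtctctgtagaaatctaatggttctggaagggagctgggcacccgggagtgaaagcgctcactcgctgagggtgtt
Col15a1: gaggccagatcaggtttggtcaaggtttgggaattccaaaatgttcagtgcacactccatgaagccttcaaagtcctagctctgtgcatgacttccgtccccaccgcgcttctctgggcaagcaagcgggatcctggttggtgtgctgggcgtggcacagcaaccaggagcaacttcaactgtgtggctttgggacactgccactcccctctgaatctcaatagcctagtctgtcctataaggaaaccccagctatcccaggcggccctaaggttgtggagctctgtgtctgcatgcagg
Amd1 and RT1-DMa hold 1 Sp1 box each, and these letters are not in the window of Col15a1.

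Of the 30 named genes, 25 had a promoter in the table, 12 higher and 13 lower. The estrogen response element GGTCANNNTGACC, searched on both strands with no mismatch, was in 0 of the 25 windows and in 0.0269% of all 33465 promoters. The shorter nuclear receptor motif AGGTCA was in 0 of 25 and in 16.2% of all promoters, and the AP-1 site TGANTCA in 0 of 25 and 7.33%. The Sp1 box was in 14 of 25, 9 of the 12 higher and 5 of the 13 lower genes, and in 33.1% of all promoters. A response element that follows an A also holds the letters AGGTCA, so these motifs can overlap. A window without a motif says only that these letters are not in it. Ano10 has 5 promoters and Sinhcaf and Srebf1 have 2 each, and not all of these were searched. The shares over all promoters count every promoter, so they are not strictly alike with the counts of 25.

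**Figure D3:**
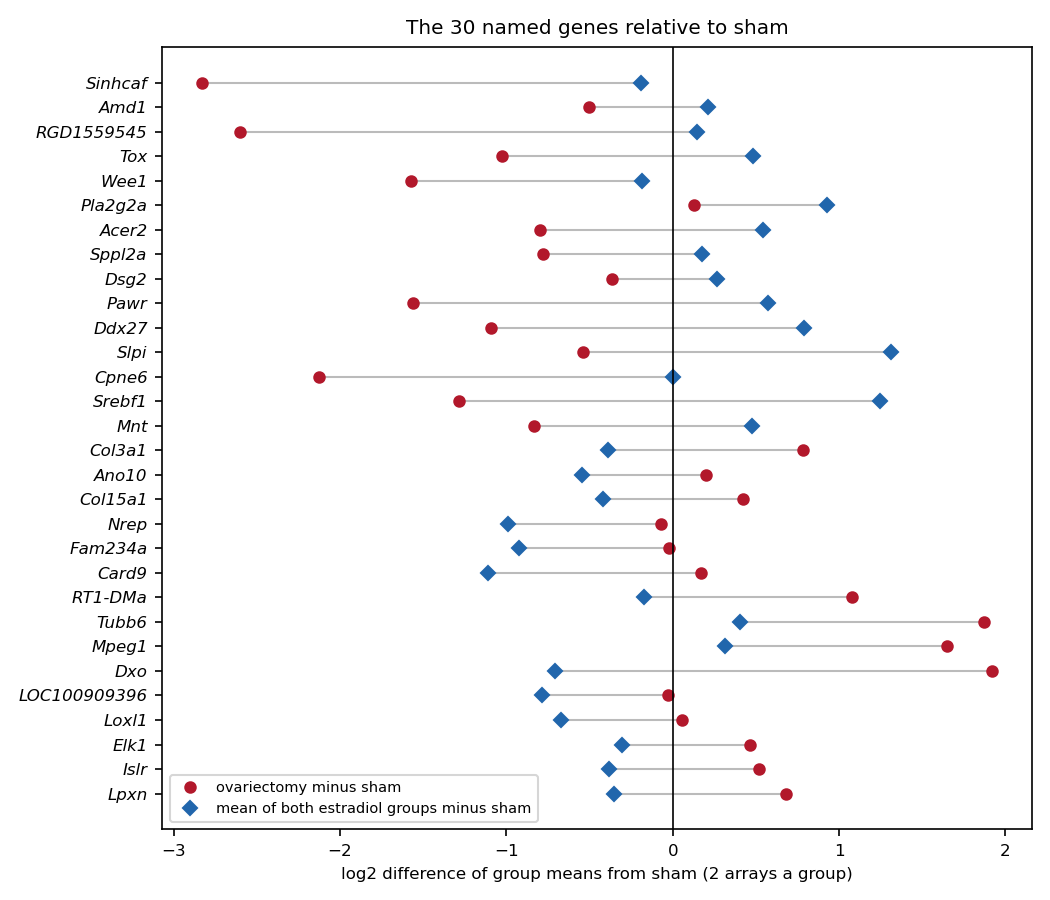
Ovariectomy minus sham (red circles) and the mean of both estradiol groups minus sham (blue diamonds) on the log2 scale (horizontal axis) for the 30 named genes, as differences of group means with 2 sham arrays. The top 15 genes were higher and the bottom 15 lower on all 4 estradiol arrays. Sinhcaf spans -2.83 to -0.19 and Col3a1 0.78 to -0.39.

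The sham arrays place these differences. Both quantities below use the sham arrays, and ovariectomy minus sham shares the ovariectomy arrays with the contrast that chose the genes, so they are given side by side only. Sinhcaf with ovariectomy was -2.83 ± 0.46 from sham and with estradiol -0.19 ± 0.40. Pla2g2a was 0.13 ± 0.22 from sham with ovariectomy and 0.93 ± 0.19 with estradiol, and all 4 of its estradiol arrays lay above both sham arrays. Slpi was -0.54 ± 0.57 from sham with ovariectomy and 1.31 ± 0.49 with estradiol. Among the lower genes, Col3a1 was 0.78 ± 0.17 from sham with ovariectomy and -0.39 ± 0.15 with estradiol, and RT1-DMa 1.08 ± 0.36 and -0.17 ± 0.31. For Nrep, Fam234a and LOC100909396 the ovariectomy mean was -0.07, -0.02 and -0.03 from sham and the estradiol mean -0.99, -0.92 and -0.79, and all 4 estradiol arrays of these genes lay below both sham arrays. No probe set passed limma's adjusted threshold for estradiol against sham (0, with 504 at an unadjusted p under 0.05) or for ovariectomy against sham (0, with 573).

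**Figure D4:**
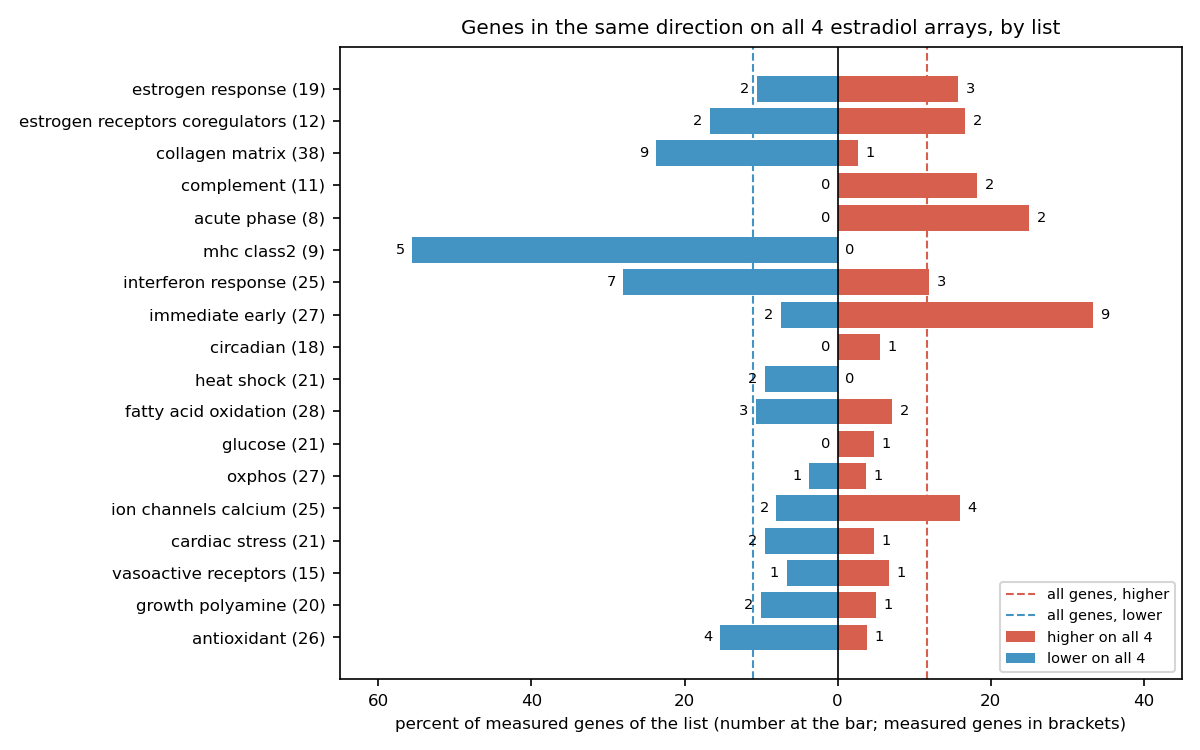
Percent of the measured genes of 18 pathway lists that were higher (red, right) or lower (blue, left) on all 4 estradiol arrays, with the number of genes at each bar and the measured genes of the list in brackets. Dashed lines are the shares over all genes, 11.7% and 11.1%. The MHC class II list has 5 of 9 genes lower and the immediate early list 9 of 27 higher.

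Across 18 pathway lists, no measured gene passed the adjusted test for estradiol at either start, and the lists are described by their counts beside the shares over all genes. The collagen and matrix list had 38 measured genes, of which 9 (23.7%) were lower and 1 (2.63%) higher on all 4 estradiol arrays. Its median difference was -0.42, against -0.0064 over all genes, and 31 of the 38 mean differences were below 0. At an unadjusted p under 0.05 there were 14. Over all 10451 genes 502 had such a p, and the counts of this kind for the lists below are read beside that. Among the genes lower on all 4 not yet described, the lowest p was that of Timp2, an inhibitor of matrix metalloproteinases, at 9.73 and 9.84 with ovariectomy, 9.54 and 9.50 with early and 8.98 and 9.07 with late estradiol (-0.51 ± 0.14). It was of mixed direction with median centring, where early replicate 1 lay 0.05 above its ovariectomy array. Col6a1, Col6a2, Col6a3, Col5a1 and Serpinh1, the collagen chaperone, were the others lower on all 4. The exception was Timp3, a matrix-bound inhibitor of metalloproteinases, at 9.75 and 9.43 with ovariectomy, 10.16 and 9.63 with early and 10.39 and 9.81 with late estradiol (0.41 ± 0.17).

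The matrix genes differed between early and late arrays and with the scaling. The list's median difference was 0.19 on early replicate 1, -0.26 on early replicate 2, -0.70 on late replicate 1 and -0.62 on late replicate 2. Col1a1, the main chain of type I collagen, had differences of 0.22, -0.72, -1.70 and -1.71 on these arrays and so was not in the same direction. Of the 9 genes lower on all 4, 2 stayed so with median centring and 6 with no scaling between arrays. The median of -0.42 was -0.24 without late replicate 1 and -0.19 without ovariectomy replicate 2. Summed over the 9 fibroblast markers, of which 2 are type I collagen chains and 1 is Col3a1, the signal was 6286 and 6538 with ovariectomy, 6343 and 5301 with early and 3461 and 4527 with late estradiol. Of these markers 2 (Col3a1 and Ddr2) were lower and 0 higher on all 4 arrays, and none was under the filter. Ddr2, a collagen receptor, was of mixed direction under both other scalings. The part of fibroblast content in the matrix values was not tested.

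**Figure D5:**
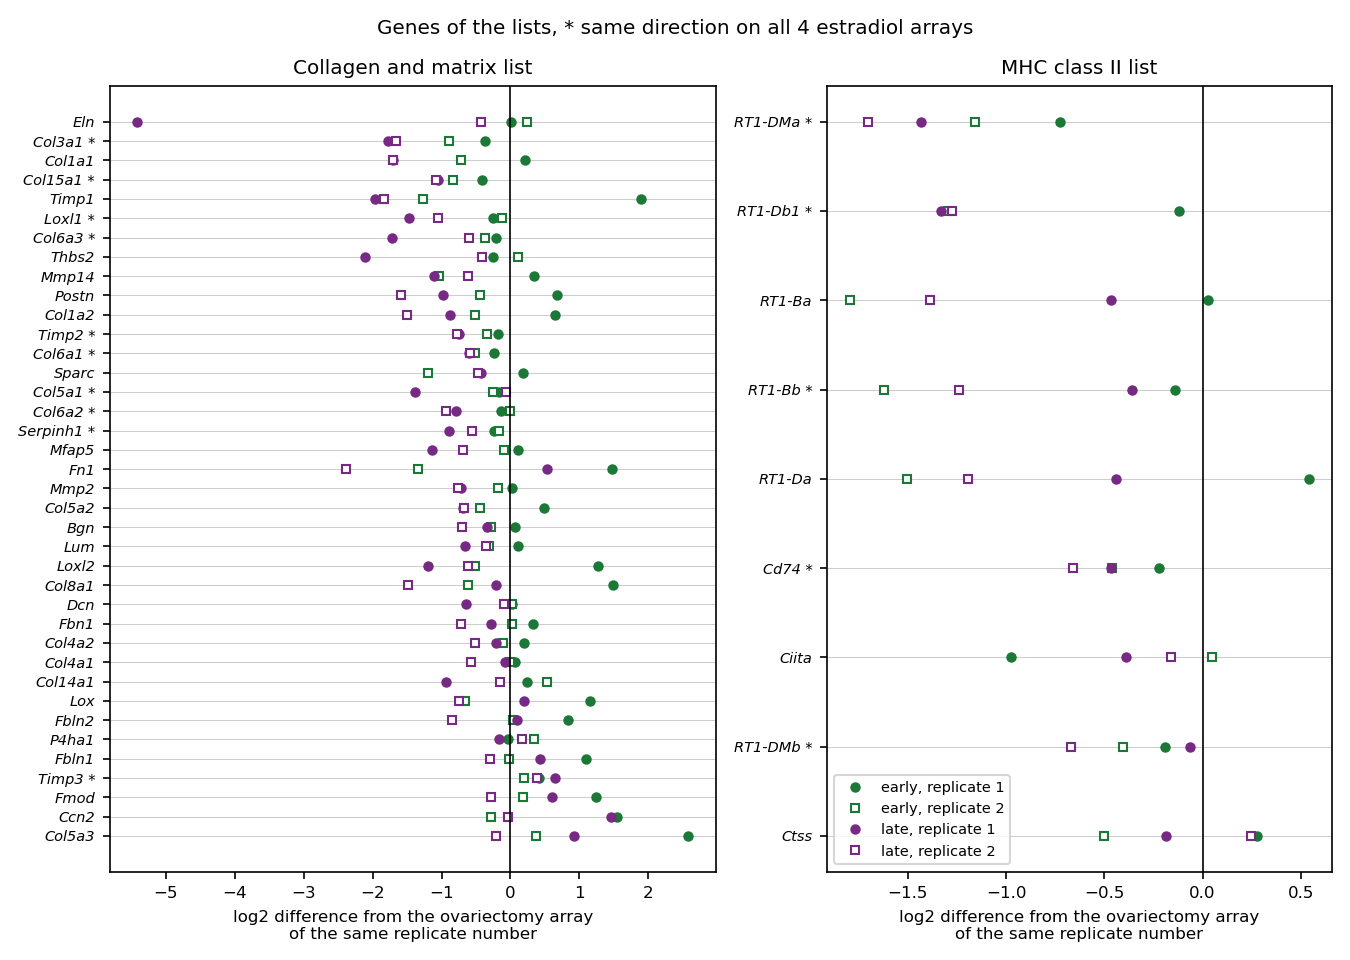
Differences of the 4 estradiol arrays from the ovariectomy array of the same replicate number (horizontal axis, log2) for 38 collagen and matrix genes (left) and 9 MHC class II genes (right), ordered by the mean difference. Circles are replicate 1, squares replicate 2, green early and purple late, and a star marks the same direction on all 4 arrays. Eln on late replicate 1, at -5.42, is the most distant point.

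MHC class II genes, which present extracellular antigen to T cells, lay lower as a list. All 9 measured genes had a mean difference below 0, 5 (55.6%) were lower on all 4 arrays, 0 were higher, and 5 had an unadjusted p under 0.05. The median was -0.65. Cd74, the invariant chain that guides class II molecules, was the brightest at 10.46 and 10.98 with ovariectomy, 10.24 and 10.52 with early and 9.995 and 10.32 with late estradiol. Its 4 differences, from -0.66 to -0.22, had a mean of -0.45 ± 0.12, and the groups overlapped, replicate 2 being brighter than replicate 1 in each of them. RT1-Db1, a class II beta chain, stood at 6.37 and 6.78 with ovariectomy, 6.25 and 5.49 with early and 5.04 and 5.51 with late estradiol (-1.0 ± 0.33). RT1-Bb, another beta chain, stood at 6.75 and 7.01 with ovariectomy, 6.61 and 5.39 with early and 6.39 and 5.77 with late estradiol (-0.84 ± 0.30).

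The class II values leaned on replicate 2, the number that holds the ovariectomy array with the high macrophage sum. The list's median difference was -0.14 and -0.44 on the early and late arrays of replicate 1 and -1.16 and -1.20 on those of replicate 2. Without ovariectomy replicate 2 the list's median was -0.28, and without ovariectomy replicate 1 it was -1.19. Of the 5 genes lower on all 4, 2 stayed so with median centring, RT1-DMa and Cd74, and 3 with no scaling between arrays, which added RT1-DMb. The part of macrophages in the list was not tested.

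Immediate early genes, transcribed at once after a stimulus without new protein synthesis, had the largest number of higher genes of the 18 lists. Of 27 measured, 9 (33.3%) were higher and 2 (7.41%) lower on all 4 arrays, with a median of 0.13 and 7 at an unadjusted p under 0.05. Egr1, a zinc finger factor induced by growth signals, stood at 6.32 and 6.77 with ovariectomy, 8.14 and 7.11 with early and 7.12 and 7.71 with late estradiol (0.98 ± 0.30). Fos, a subunit of AP-1 and a known estradiol target in the uterus, stood at 4.97 and 5.49 with ovariectomy, 7.19 and 5.83 with early and 5.92 and 6.26 with late estradiol (1.07 ± 0.37). Early replicate 1 was the highest array for both, and no estradiol array overlapped the ovariectomy arrays. Arc (2.45 ± 0.78), a capsid-like protein known from neurons, and Egr3 (1.23 ± 0.48), a relative of Egr1, followed. The 2 lower genes were Gadd45b, a stress-induced partner of stress kinases (-0.73 ± 0.30), and Egr2, another relative of Egr1 (-1.13 ± 0.55). All 6 genes just named kept their direction under both other scalings. Of the 9 higher genes, 6 stayed higher with median centring and 5 with no scaling between arrays. Arc and Egr3 had a mean level with ovariectomy below the filter and passed it through the estradiol groups.

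Interferon-response genes held 7 lower (28.0%) and 3 higher (12.0%) genes among 25 measured, with a median of -0.07 and 2 at an unadjusted p under 0.05. Cxcl11, a chemokine for activated T cells, stood at 8.13 and 8.03 with ovariectomy, 7.64 and 7.38 with early and 8.01 and 7.60 with late estradiol (-0.42 ± 0.19). Isg15, a ubiquitin-like protein, gave -0.74 ± 0.38 and Ifi27, a small mitochondrial protein, -0.29 ± 0.13, both with every estradiol array below both ovariectomy arrays. Isg20, an RNA exonuclease whose mean level with ovariectomy was below the filter, gave 1.74 ± 0.73, from 1.15 and 4.14 with ovariectomy to 3.53 to 5.02 with estradiol, and with late replicate 2 at its ovariectomy level. Of the 7 lower genes, 4 stayed lower with median centring and 4 without scaling, and of the 3 higher ones 0 stayed higher under either. Isg15, Ifi27 and Isg20 were of mixed direction under both, and Cxcl11 stayed lower on all 4 arrays.

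Known estrogen targets of other tissues lay in both directions. Of 19 measured genes, 3 (15.8%) were higher and 2 (10.5%) lower on all 4 arrays, with a median of 0.08. The higher ones were Fos, Cxcl12 and Nrip1. Cxcl12, a chemokine that retains and recruits progenitor cells, stood at 8.70 and 8.97 with ovariectomy, 9.06 and 9.58 with early and 9.13 and 9.11 with late estradiol (0.38 ± 0.16). Nrip1, a corepressor of nuclear receptors, stood at 5.33 and 5.2 with ovariectomy and at 5.45 to 6.01 with estradiol (0.42 ± 0.28). For both genes no estradiol array overlapped the ovariectomy arrays, but with no scaling between arrays late replicate 1 was lower than its ovariectomy array. The lower ones were Gadd45g, a stress-induced growth arrest protein (-0.36 ± 0.26), and Igfbp5, a binding protein of insulin-like growth factors (-0.18 ± 0.19), which was of mixed direction under both other scalings.

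The receptors themselves were dim. Esr1, the main nuclear estrogen receptor, was brighter than only 6.63% of probe sets, Esr2, the second one, than 16.0%, and Pgr, the progesterone receptor and a classic estrogen target, than 33.1%. All of these were below the filter and were not tested. Gper1 passed it, at 5.63 and 2.28 with ovariectomy, 4.31 and 3.77 with early and 4.36 and 2.43 with late estradiol, and its directions were mixed (-0.24 ± 0.69). Among the 12 measured receptors and coregulators, 2 were higher (Nrip1 and Ep300, a histone acetyltransferase) and 2 lower on all 4 arrays. The lower ones were the estrogen-related receptors Esrra (-0.17 ± 0.16) and Esrrb (-0.45 ± 0.25), which control mitochondrial and metabolic genes without binding estradiol. With no scaling between arrays Nrip1, Ep300, Esrra and Esrrb were of mixed direction, and Esrra was so with median centring too.

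The myosin heavy chains of the cardiomyocyte differed little. Myh6, the fast myosin heavy chain, stood at 12.76 and 12.50 with ovariectomy, 12.73 and 12.48 with early and 12.74 and 12.41 with late estradiol (-0.04 ± 0.10). Myh7, the slow chain that increases in stressed rodent hearts, stood at 12.92 and 13.13 with ovariectomy, 13.04 and 13.22 with early and 13.04 and 13.22 with late estradiol (0.10 ± 0.10). Both lay in the same direction on all 4 arrays after quantile normalization, and were of mixed direction under both other scalings. Acta1, skeletal actin, was lower at -0.53 ± 0.17, from 11.85 and 12.26 with ovariectomy to 11.63 on both early arrays and 11.75 and 11.07 on the late arrays. Acta1 kept its direction under both other scalings. These were the 3 of 21 cardiac stress genes in the same direction.

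The other lists are read against the 11.7% of all genes that were higher and the 11.1% that were lower on all 4 arrays. Of 28 genes of fatty acid oxidation, 2 were higher (7.14%) and 3 lower (10.7%). Of 27 of oxidative phosphorylation, 1 was higher and 1 lower, and of 21 of glucose use 1 and 0. Of 18 circadian genes only Wee1 was higher and 0 were lower, and of 21 heat shock genes 0 were higher and 2 lower. Ion channels and calcium handling had 4 higher (16.0%) and 2 lower (8.0%) of 25, among them Kcnj11, the pore of the ATP-sensitive potassium channel (0.28 ± 0.17, mixed with no scaling between arrays), and Kcnd2, a transient outward potassium channel (-0.41 ± 0.28). Kcnd3 went the other way, with differences of 0.17 to 0.46 under median centring and mixed directions with no scaling. No direction of such channels as a group is read from Kcnd2. Antioxidant genes had 1 higher and 4 lower of 26, led by Prdx5, a mitochondrial peroxidase (-0.44 ± 0.14). Of 20 growth factor and polyamine genes, 1 was higher (Amd1) and 2 were lower. Srm, the spermidine synthase that acts after Amd1, was among the lower genes. It stood at 5.67 and 6.41 with ovariectomy, 4.91 and 5.82 with early and 4.73 and 5.32 with late estradiol (-0.85 ± 0.34). Of 11 complement genes 2 were higher and 0 lower, of 8 acute-phase genes 2 (Pla2g2a and Orm1) and 0, and of 15 vasoactive receptors 1 and 1.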

How the data were processed

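Heart RNA was measured on 8 single-colour Affymetrix arrays, 2 pools of 3 hearts for each of 4 groups. The authors deposited 1 linear intensity value for each probe set on each array, from MAS5 according to the submitters' processing notes. The MAS5 version and scaling target were not given in the sources used here, and the number of arrays limits the precision. Detection calls were not used. The log2 of each value was quantile normalized over all 8 arrays. After 57 controls were removed from 31099 probe sets, those whose mean log2 signal was under the 40th percentile (3.69) were dropped, which left 18625 for testing. Symbols were read from the platform annotation, which gives 1 symbol for 20826 probe sets, several for 436 and none for 9780. The RefSeq table of GRCr8 held 20758 of the 20826 by Entrez number. Kept probe sets with 1 symbol numbered 13924 and stood for 10451 genes, each given by its brightest probe set.

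The model, fitted in limma (3.58.1, under R 4.3.3), held group means over all 8 arrays and replicate number as a block, with an intensity trend, two-sided, Benjamini-Hochberg adjustment over all kept probe sets and a threshold of 0.05. The fit was tested on simulated data. The number pairs the arrays: deviations of same-numbered arrays from their group means correlated across probe sets for each of the 6 group pairs (r between 0.28 and 0.33), each number holding 1 array of each group. The comparison, the gene lists and the rules were chosen with earlier results of these data known. Named genes were the 15 higher and 15 lower of smallest unadjusted p among genes in the same direction on all 4 estradiol arrays with a mean difference of at least 1.5-fold, up to 4 genes in the same direction by p in each list described, and Esr1, Esr2, Gper1, Pgr and the pair at the border of the rule. Timp3, Col6a1, Col6a2, Col6a3, Col5a1, Serpinh1, Col1a1, Gadd45b, Egr2, Igfbp5, Ddr2, Adgre1, RT1-DMb and Kcnd3 were named after their values were seen. Alternatives changed the scaling, filter, pseudocount, block, trend, choice of probe set and arrays.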

Additional observations from a re-analysis of the deposited data

Results flagged for a closer look

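In 9 genes of the lists described in detail, both early arrays lay on one side of the ovariectomy array of their number and both late arrays on the other. Late minus early was -3.05 for Eln (elastin), where the 2 late arrays differed from their ovariectomy arrays by -5.42 in replicate 1 and -0.43 in replicate 2. It was -0.93 for Col14a1, -0.67 for Fbn1 and -0.39 for Dcn, which are proteins of the matrix. It was -0.98 for Ier3 and -0.81 for Junb, which are immediate early genes, -0.73 for Ctsd, a lysosomal protease, and -0.31 for Xbp1, a factor of the secretory pathway, both known estrogen targets. Gbp2, an interferon-induced GTPase, went the other way, at 0.46. The difference between starts was tested in limma and passed for none of these genes. Over all 18 pathway lists 29 genes showed such opposite sides, 23 with late below early and 6 with late above it, and their adjusted p-values ran from 0.500 to 0.962. No share over all genes is given for opposite sides, so nothing is read from this number or its split. With no scaling between arrays, the median difference over all probe sets was 0.12 and 0.22 on the early arrays. On the late arrays it was -0.48 and -0.12. Whether the opposite sides hold under other scalings was not tested.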

How the results depend on the processing

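Estradiol against ovariectomy gave 0 probe sets under every scaling, filter, pseudocount and block tried, with lowest limma adjusted p-values from 0.0522 (32 added before the log) to 0.619 (median centring). Leaving out 1 array gave 0 to 8: 5 lower without ovariectomy replicate 1 (Spp1, Gpnmb, Cd300c2, Lgals3 and 1 with no symbol) and 8 higher without ovariectomy replicate 2 (Snx1, Myl7, Tnk2, Ldb3, Epha4, Atg2a, Srebf1 and 1 with no symbol), the lone ovariectomy array then being assumed to vary like the others. Late against early gave 0, but 37 with no between-array normalization, 4 with median centring, and 0 to 164 on leaving out 1 array, 1 of them without early replicate 1 and 164 without late replicate 2. Without the replicate block, the 501 probe sets at an unadjusted p under 0.05 compare with 959 in the paired fit, and 1107 and 822 had all 4 estradiol arrays above or below both ovariectomy arrays. Late against ovariectomy, whose alternatives were chosen after seeing the data, gave 1 (Col3a1), but 0 without the block, with median centring and with no intensity trend, 6 with no between-array normalization, 2 with either setting that used 6 arrays, and 0 to 125 on leaving out 1 array; Col3a1 was -2.13 to -1.52 throughout. The probe sets higher on all 4 (2327) were 1097 with no between-array normalization and 3627 with no filter. With a filter at the 60th percentile they were 1539. Those lower (1862) were 1151 with median centring, 3368 with no filter and 1212 with that filter. The filter settings change how many probe sets are counted, and the shares of these moved little. The share higher was 12.5% with the main settings, 11.7% with no filter and 12.4% with the filter at the 60th percentile. The share lower was 9.997%, 10.8% and 9.76% under the same settings. Leaving out 1 array gave 2317 to 6823 probe sets higher and 1858 to 5948 lower. The low ends came without sham replicate 2, where 4 differences were still compared. Without an ovariectomy or estradiol array, fewer arrays had to share a direction. Of 531 mean differences of the 30 named genes under these alternatives, 0 changed sign, and 1 passed the threshold, Srebf1 without ovariectomy replicate 2 (adjusted p 0.0286, against 0.890 with all arrays). The 30 genes were chosen for differences of one sign on all 4 arrays, so the 0 sign changes were largely fixed in advance. Nothing is read from them. Beyond the number of probe sets counted and of arrays compared, the cause of the changes under these alternatives was not tested. The median standard error of dim genes was 0.48, against 0.18 in bright genes.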

Other observations

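Among the 3484 brightest genes, 27 lay in the same direction on all 4 estradiol arrays with a mean difference of at least 1.5-fold, 11 higher and 16 lower. They were collected after the values were seen, and none passed limma's adjusted test for estradiol at either start. Beside genes already described, the higher ones held Txlnb, a muscle taxilin, at 9.40 and 8.96 with ovariectomy, 9.77 and 9.30 with early and 10.45 and 9.62 with late estradiol (0.60 ± 0.21). Sox18, an endothelial factor of vessel and lymphatic development, stood at 5.93 and 7.14 with ovariectomy, 6.99 and 7.66 with early and 7.49 and 7.17 with late estradiol (0.79 ± 0.30). Prodh, the mitochondrial proline dehydrogenase, was higher by 0.63 ± 0.26. These genes were not picked by p, and the groups of Txlnb, Sox18 and Prodh overlapped. Sox18 on late replicate 2 differed by only 0.03, and the differences of Prodh ran from 0.11 to 1.43. Fyttd1 (0.64 ± 0.23) and Zscan26 (0.59 ± 0.22) were also higher, with groups that did not overlap. Their unadjusted p was smaller than that of Sox18 and Prodh.

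Of the lower ones not described above, 4 are given here. They were not picked by p, and no common role of the lower ones is read from them. Strn4 (-0.88 ± 0.26), Gngt2 (-0.63 ± 0.21) and Scamp3 (-0.66 ± 0.24) were also lower, with smaller unadjusted p than Pcsk6 and Pf4. Lcp1, the actin bundler of leukocytes, stood at 7.16 and 8.41 with ovariectomy, 7.16 and 7.11 with early and 6.56 and 6.70 with late estradiol (-0.90 ± 0.30). Its difference on early replicate 1 was only -0.00084, so it barely met the rule. On early and late replicate 2 its differences were -1.30 and -1.71. Pf4, a chemokine of platelets and macrophages, stood at 9.27 and 8.49 with ovariectomy, 8.49 and 8.26 with early and 8.08 and 8.35 with late estradiol (-0.59 ± 0.23). Lcp1 was highest on ovariectomy replicate 2, the array with the highest macrophage marker sum, and Pf4 on ovariectomy replicate 1. Pcsk6, a proprotein convertase that activates corin in the mouse heart, stood at 8.05 and 8.16 with ovariectomy, 7.56 and 7.93 with early and 6.70 and 7.75 with late estradiol (-0.62 ± 0.23). Smpdl3a, a secreted phosphodiesterase of macrophages, was lower by -0.69 ± 0.20, with all 4 estradiol arrays below both ovariectomy arrays.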
